A study of Mus musculus with 2 samples.

Results

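Secondary granule genes of neutrophils were followed in mouse bone marrow cultures through the 6 members Camp, Ngp, Ltf, Lcn2, Cd177 and Fcnb, chosen by name out of the 26124 genes of each count matrix. The cells were lineage-depleted progenitors from bone marrow of C57BL/6 mice aged 8 to 10 weeks, grown with the growth factor GM-CSF at 20 ng/ml. The depletion antibodies included CD11b and Gr-1, surface antigens of neutrophils. On day 3, 1 set of cultures received heme bound to albumin at 300.0 µM (heme) and the other set received albumin alone (control). Cultures were marked with antibody-bound DNA hashtags named for days 0, 3, 4, 5 and 7 and were pooled into 1 single-cell library per group, so that the groups differed in heme and shared GM-CSF and albumin. The cells tagged for days 0 and 3 of the heme library preceded the exposure but were pooled with the exposed cells. The labels give harvests on days 4, 5 and 7, whereas according to the design text the exposure lasted 0, 24, 72 and 96 h, and culture days are used here. Neither group had a second library. No replicate check of any difference was therefore possible, no p-value is given, and the intervals cover counting error only.

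Developing neutrophils fill their granules in an order. Serine proteases and myeloperoxidase enter the primary granules at the promyelocyte stage, the proteins of the secondary (specific) granules follow at the myelocyte and metamyelocyte stages, and gelatinase granules form last. The transcription factor C/EBPε, encoded by Cebpe, is required for the secondary granule genes, and their transcripts decline in mature cells although the proteins stay in the granules. Of the members, Camp encodes the cathelicidin antimicrobial peptide precursor, Ngp encodes a neutrophilic granule protein related to the cathelins, and Ltf encodes the iron-binding protein lactoferrin. Lcn2 encodes lipocalin 2, which binds bacterial siderophores and can also be made by macrophages and epithelia. Cd177 encodes a surface and granule membrane glycoprotein, and Fcnb encodes ficolin B, a lectin of the complement system.

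All 6 members are protein-coding genes, and no other annotated gene overlapped them (GENCODE M21, build GRCm38). Camp lies at chr9:109847379-109849617 on the minus strand with 4 exons, Ngp at chr9:110419747-110423012 on the plus strand with 4 exons and Ltf at chr9:111019271-111042767 on the plus strand with 17 exons in its longest model. Lcn2 lies at chr2:32384633-32388252 on the minus strand, Cd177 at chr7:24743983-24760311 on the minus strand and Fcnb at chr2:28076378-28084885 on the minus strand. Thus 3 members share a stretch of 1195389 bp on chromosome 9, with 36 other genes of the matrix between them. As the members share a time course, the 250 bases before each RefSeq start (GRCm38.p6) were searched for the letters of a C/EBP-type site, TTGCNNAA or on the other strand TTNNGCAA. A match was present in 4 of the 6 members (Ngp, Ltf, Lcn2 and Fcnb) and in 9.56% of 32851 RefSeq promoters of this length. Ngp held matches that began 138 and 11 bases before the start, Ltf held 1 at 75 bases, Lcn2 held 1 at 216 bases (TTGCTCAA) and Fcnb held 2 at 235 and 123 bases. The Lcn2 match and the Ngp match at 11 bases lay within annotated exons, and the other matches did not. A second search, for the ETS-type letters GAGGAA or TTCCTC, matched Ltf, Lcn2 and Cd177 and 23.3% of the 32851 promoters. A match of either type describes letters only and is not a measured site. The parts of 3 member promoters outside annotated exons are shown 5′ to 3′ on the strand of the gene, from RefSeq, with C/EBP-type matches in capitals. They are chr9:110419558-110419746 (plus strand) for Ngp, chr9:111019042-111019270 (plus strand) for Ltf and chr2:28084886-28085128 (minus strand) for Fcnb.
Ngp: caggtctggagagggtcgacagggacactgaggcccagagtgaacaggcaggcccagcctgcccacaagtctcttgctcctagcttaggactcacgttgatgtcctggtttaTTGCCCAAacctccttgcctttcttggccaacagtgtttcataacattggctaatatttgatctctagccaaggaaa
Ltf: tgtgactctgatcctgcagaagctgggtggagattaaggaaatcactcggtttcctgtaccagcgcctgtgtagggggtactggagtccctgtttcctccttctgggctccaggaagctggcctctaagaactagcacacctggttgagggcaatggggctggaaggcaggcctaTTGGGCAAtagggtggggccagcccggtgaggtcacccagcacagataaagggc
Fcnb: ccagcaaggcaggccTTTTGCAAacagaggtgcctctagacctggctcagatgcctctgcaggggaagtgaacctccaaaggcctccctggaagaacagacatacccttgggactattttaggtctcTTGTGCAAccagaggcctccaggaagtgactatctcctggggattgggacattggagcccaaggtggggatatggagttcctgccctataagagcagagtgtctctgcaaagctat

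The matrices held 13961 barcodes with 198754588 unique molecular identifiers (UMIs, each standing for 1 captured transcript) in the control library and 17378 barcodes with 333481636 UMIs in the heme library. Of these, 9684 and 9941 cells carried 1 hashtag and passed the limits on detected genes and on mitochondrial and ribosomal UMIs. The limits acted unequally before the exposure. They kept 598 of 1716 control and 1366 of 1877 heme singlets of day 0. On day 3 they kept 1897 of 2170 and 2174 of 3464. The part of this loss in the differences of days 0 and 3 was not tested. The 10 cultures held 598 to 2715 cells and 6189203 to 34647365 UMIs each, so counting error was small for all members but Fcnb. A total of 112 barcode sequences occurred in both libraries (0.802% and 0.644%), and leaving them out moved no count of members. Levels are given as CPM, the UMIs of a gene per 1000000 UMIs of the summed cells. They are counts at the 3′ end and were compared within a gene, not between genes. A gene was compared where it had 20 or more UMIs in both groups together, which all 6 members had in each comparison of whole cultures and of S100a8-high cells (defined below). It was called higher or lower where the levels differed 2-fold or more.

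Cells of the neutrophil lineage were taken as S100a8-high, with S100a8, a calcium-binding alarmin of neutrophils and some monocytes, at 1% or more of the UMIs of the cell. Between days 3 and 5 the S100a8-high cells made up 53.8% to 68.5% of the control cells and 61.0% to 83.4% of the heme cells. On day 7 they were 137 of 2715 control cells, 5.05% (exact binomial interval 4.25% to 5.94%), and 469 of 2012 heme cells, 23.3% (21.5% to 25.2%). On day 0 they were 13 of 598 control cells and 23 of 1366 heme cells. The class is a range of a level and not a cell type, and 1.00% to 5.72% of the cells of a culture lay between 0.5% and 2% S100a8. Of other neutrophil markers, Csf3r, Cxcr2 and Ly6g were detected in S100a8-high cells on each day in both libraries. Ly6g, a surface antigen of neutrophils, was at 337 and 256 CPM on day 4. The class also held transcripts of macrophage markers, given next, and of monocyte and dendritic cell markers, given below for days 5 and 7. Markers of macrophages summed to 26.0 to 188 CPM in these control cells and to 48.7 to 272 CPM in these heme cells between days 3 and 7, with Marco at 0 UMIs in the control cells of days 3 and 5 and C1qa at 0 UMIs in the heme cells of day 7. The members were almost wholly transcripts of this class. Its cells held 97.7% to 99.6% of the summed member UMIs on days 3 to 5, and on day 7 the shares were 56.3% (control) and 92.4% (heme).

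**Figure D1:**
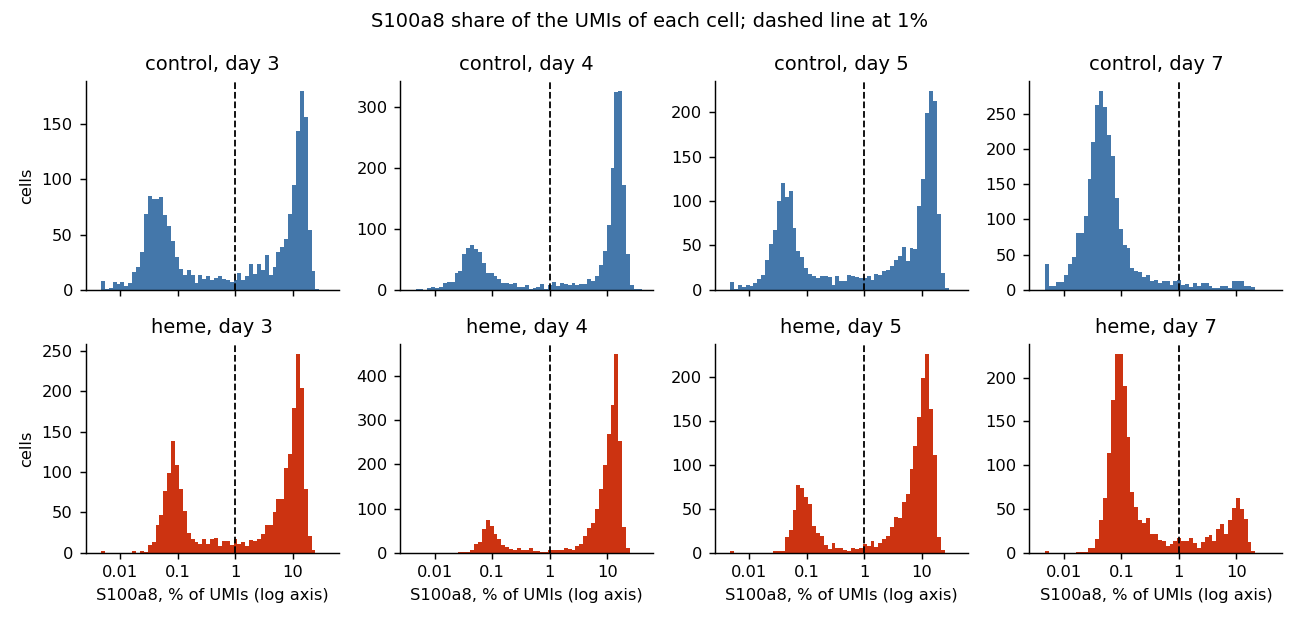
Histograms of the share of S100a8 in the UMIs of each cell (x axis, percent, log axis) against the number of cells (y axis), 1 panel per library and day from 3 to 7, with the limit of 1% dashed. Most cells lie well to either side of the limit, and the right-hand group is small on day 7 (137 control and 469 heme cells).

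In whole cultures, all 6 members were low on day 0, stood at their highest on day 3 or 4 and were lower on each later day in the control library. Camp was at 306, 5192, 7043, 2224 and 89.9 CPM on days 0, 3, 4, 5 and 7 in the control library and at 251, 6588, 7346, 900.0 and 719.7 CPM in the heme library. Ngp was at 246, 7394, 7796, 4145 and 183 CPM and at 442, 10472, 14844, 5124 and 3604 CPM. Ltf was at 73.4, 2341, 4489.7, 1572 and 61.1 CPM in the control and at 160.0, 4494, 5763, 1174 and 871 CPM in the heme library. Thus lactoferrin transcripts, like those of Camp and Ngp, peaked on day 4 in both libraries. Lcn2 was at 144, 4092, 7197, 3254 and 168 CPM in the control and 216, 4676, 7598, 3054 and 1005 CPM in the heme library. Cd177 was at 13.1, 374, 524, 238 and 10.9 CPM and 31.3, 872, 1232, 455 and 154 CPM, with the higher value in the heme library on each day. Fcnb was at 5.17, 204, 127, 54.9 and 3.17 CPM and 12.1, 221, 115, 17.5 and 18.7 CPM. Fcnb was the exception to the day 4 peak, with its highest level on day 3 in both libraries. Together the members took 1.96%, 2.72% and 0.052% of all UMIs in the control cultures of days 3, 4 and 7, and 2.73%, 3.69% and 0.637% in the heme cultures.

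**Figure D2:**
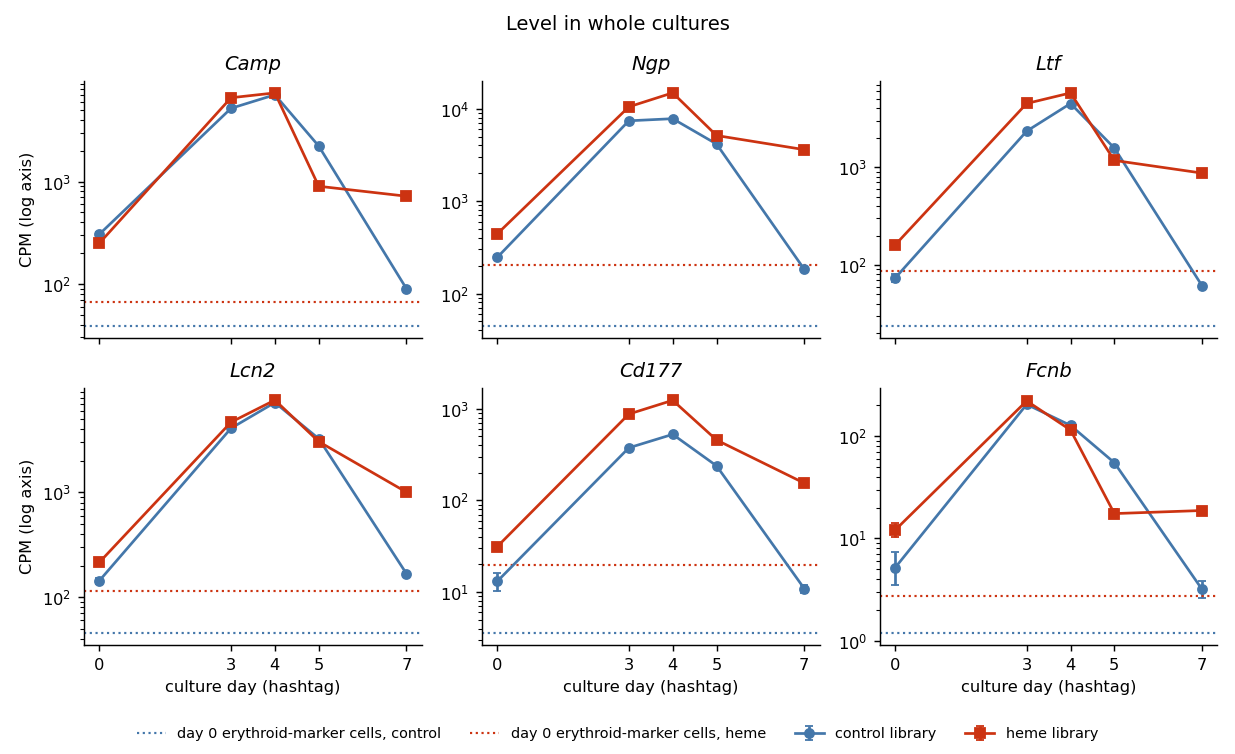
Level of each member (CPM, log axis) in whole cultures by culture day, 1 panel per gene, in the control and heme libraries, with 95% Poisson intervals as error bars and dotted lines at the level in day 0 erythroid-marker cells of the same library. Both libraries climb to day 3 or 4, and by day 7 the control values have come down below those of day 0 or close to them while the heme values stay higher (for Camp 89.9 against 719.7 CPM).

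Between days 0 and 3, before the exposure, all 6 members were higher in both libraries. The ratios of day 3 to day 0 ranged from 16.9 (Camp) to 39.4 (Fcnb) in the control library, where 15.1% of all genes compared were called higher. In the heme library they ranged from 18.3 (Fcnb) to 28.1 (Ltf), with 11.6% of all genes called higher. From day 3 to day 4 no member passed 2-fold in either library, against 6.05% and 8.32% of all genes. The step from day 4 to day 5 took 5 of 6 control members down 2-fold or more, with Ngp at 0.532 (0.528 to 0.536) of its day 4 level as the exception (1.85% of all genes were lower). In the heme library all 6 were lower (3.08% of all genes), and Camp fell most, to 0.123 (0.121 to 0.124) of its day 4 level. From day 5 to day 7 the libraries parted. In the control library all 6 members were lower, at 0.0389 (Ltf) to 0.0578 (Fcnb) of the day 5 level, against 4.26% of all genes. In the heme library Lcn2 and Cd177 were lower, at 0.329 and 0.339, the other 4 were at 0.703 to 1.07, and 4.5% of all genes were lower. The whole decline from day 4 to day 7 was 40.0-fold (Fcnb) to 78.3-fold (Camp) in the control library, and 4.12-fold (Ngp) to 10.2-fold (Camp) in the heme library. All 6 members were lower in both, against 6.33% and 7.43% of all genes. On day 7, control cells with S100a8 under 1% held Camp at 44.0 CPM, where the whole culture had 89.9 CPM. In the heme library these values were 74.0 and 719.7 CPM. The part of this low level in the folds was not tested.

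The comparison of heme with control asks whether granule transcripts differed after the exposure. On day 7 all 6 members were higher in the heme culture, against 14.9% of all genes, with a median log2 ratio of 3.41 over the members and 0.28 over all genes. Ngp had 3604 CPM with heme against 183 CPM without it, a ratio of 19.7 (19.2 to 20.2). Ltf had a ratio of 14.3 (13.6 to 14.9), Cd177 of 14.1 (12.7 to 15.7) and Camp of 8.00 (7.70 to 8.31). Lcn2, at 1005 against 168 CPM, and Fcnb, at 18.7 against 3.17 CPM, had the lowest ratios of 5.99 (5.83 to 6.17) and 5.90 (4.79 to 7.32). S100a8 itself had a ratio of 6.69 (6.64 to 6.75) on this day. The size of the day 7 difference rests on the hashtag calls. Where only cells with 75% or more of their hashtag UMIs on the called tag were kept, an alternative chosen after seeing the data, 4 of 6 members passed 2-fold, with a median log2 ratio of 1.67, and Camp (0.58) and Fcnb (0.81) did not. Calls over all genes were not recomputed under this margin, so this count has no share of all genes beside it.

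On day 5 the members went both ways. Camp, the cathelicidin gene, had 900.0 CPM with heme against 2224 CPM without it, a ratio of 0.405 (0.398 to 0.412), and Fcnb was at 17.5 against 54.9 CPM, a ratio of 0.319 (0.282 to 0.359). These 2 members were lower, against 3.75% of all genes. Ltf had a ratio of 0.747 (0.735 to 0.759), Lcn2 of 0.939 (0.929 to 0.948) and Ngp of 1.24 (1.23 to 1.25), none past 2-fold. Cd177 had the highest ratio, 1.91 (1.85 to 1.98), also short of 2-fold. The median log2 ratio was -0.26 over the members and 0.25 over all genes. Without the upper limit of 5000 genes per cell it was -1.09, Ltf then was the third member past 2-fold, and Ngp turned to lower in the heme library (-0.56). Calls over all genes were not recomputed for this setting.

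On days 3 and 4, Cd177 was the 1 member past 2-fold, and it was so before heme had been added. It was at 872 against 374 CPM on day 3, a ratio of 2.33 (2.28 to 2.38), and at 1232 against 524 CPM on day 4, a ratio of 2.35 (2.30 to 2.40). Genes called higher made up 7.95% of all genes on day 3 and 9.64% on day 4. Ltf had a ratio of 1.92 (1.90 to 1.94) on day 3 and 1.28 (1.27 to 1.29) on day 4, and Ngp of 1.42 (1.41 to 1.42) and 1.90 (1.89 to 1.91). Camp and Lcn2 lay nearer to equal levels, with 1.27 and 1.14 on day 3, then 1.04 and 1.06 a day later, and Fcnb had 1.08 and 0.901. With edgeR TMM or DESeq2 factors in place of totals, Lcn2 and Fcnb on day 3 and Camp and Lcn2 on day 4 turned to lower in the heme library, as these factors moved the median of all genes from 0.31 to 0.10 and 0.05 on day 3. The share of higher calls among all calls then went from 93.7% to 69.9% and 61.7% on day 3, from 76.4% to 51.9% and 46.5% on day 4, from 71.2% to 47.3% and 46.1% on day 5, and from 65.9% to 49.2% and 47.8% on day 7. Without the upper limit of 5000 genes per cell, the member medians turned from 0.42 to -0.22 on day 3 and from 0.22 to -0.17 on day 4, Cd177 was at 0.57 and 0.86, and Camp, Ngp, Lcn2 and Fcnb on day 3 and Camp, Ltf and Lcn2 on day 4 turned to lower in the heme library. The day 0 cultures differed as well, with Ltf, Cd177 and Fcnb past 2-fold at 2.18, 2.39 and 2.33 (1.59 to 3.52) against 20.7% of all genes, and Camp at 0.818 (0.773 to 0.866).

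A whole-culture level combines how much of the RNA came from S100a8-high cells, how much of each transcript these cells held and the level in the remaining cells. The last part counted on day 7, when S100a8-high cells held 56.3% of the control member UMIs. Ngp was then at 57.2 CPM in the remaining control cells and 182 CPM in those of the heme library. The first 2 ratios therefore do not multiply to the whole-culture ratio of day 7. On day 7, S100a8-high cells gave 2.04% of the control UMIs and 15.5% of the heme UMIs, a ratio of 7.63, and the ratios were 1.18, 1.32 and 1.59 on days 3, 4 and 5. Within S100a8-high cells on day 7, 3 members were higher in the heme library, against 15.6% of all genes. Ngp was at 22219 against 6229 CPM, a ratio of 3.57 (3.46 to 3.68), Ltf had a ratio of 3.50 (3.29 to 3.73) and Cd177 of 3.05 (2.64 to 3.53). Camp, Fcnb and Lcn2 had ratios of 1.84 (1.75 to 1.94), 1.52 (1.13 to 2.10) and 1.38 (1.32 to 1.43). With 75% or more of the hashtag UMIs on the called tag, an alternative chosen after seeing the data, Ltf was the 1 member still higher, at 1.34 on the log2 scale, Camp was lower at -1.44, and the member median went from 1.24 to 0.17. The share of all genes was not recomputed under this margin. In the kept singlet cells, the ratio in the share of UMIs exceeded the ratio in the level within these cells for all 6 members.

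Within S100a8-high cells 3 of 6 members were lower in the heme library on day 5, and all 6 were short of 2-fold on days 3 and 4. On days 3, 4, 5 and 7, Camp was at 10309, 12233, 6247 and 2297 CPM in the control and at 11094, 9677, 1548 and 4231 CPM in the heme cells. Its day 5 ratio was 0.248 (0.244 to 0.252), the lowest after Fcnb at 0.193 (0.170 to 0.218). Ltf was at 4639, 7792, 4412 and 1457 CPM and 7537, 7575, 2021 and 5099.9 CPM, with a day 5 ratio of 0.458 (0.451 to 0.466). These 3 members were lower on day 5, against 1.86% of all genes, with a median log2 ratio of -0.95 over the members and 0.33 over all genes. Lcn2 was at 8013, 12442, 9102 and 3916 CPM and 7754, 9963, 5291 and 5387 CPM, with 0.581 (0.575 to 0.587) on day 5. Ngp was at 14679.7, 13524, 11676 and 6229 CPM and 17533, 19546, 8994 and 22219 CPM, with 0.770 (0.764 to 0.777). Cd177 alone had a day 5 ratio above 1, 1.19 (1.16 to 1.23), and its ratios on days 3 and 4 were 1.97 (1.93 to 2.02) and 1.78 (1.75 to 1.82). No member passed 2-fold on day 3 or 4, against 14.9% and 14.6% of all genes, and the member medians were 0.18 and -0.18 where those of all genes were 0.41 and 0.44.

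**Figure D3:**
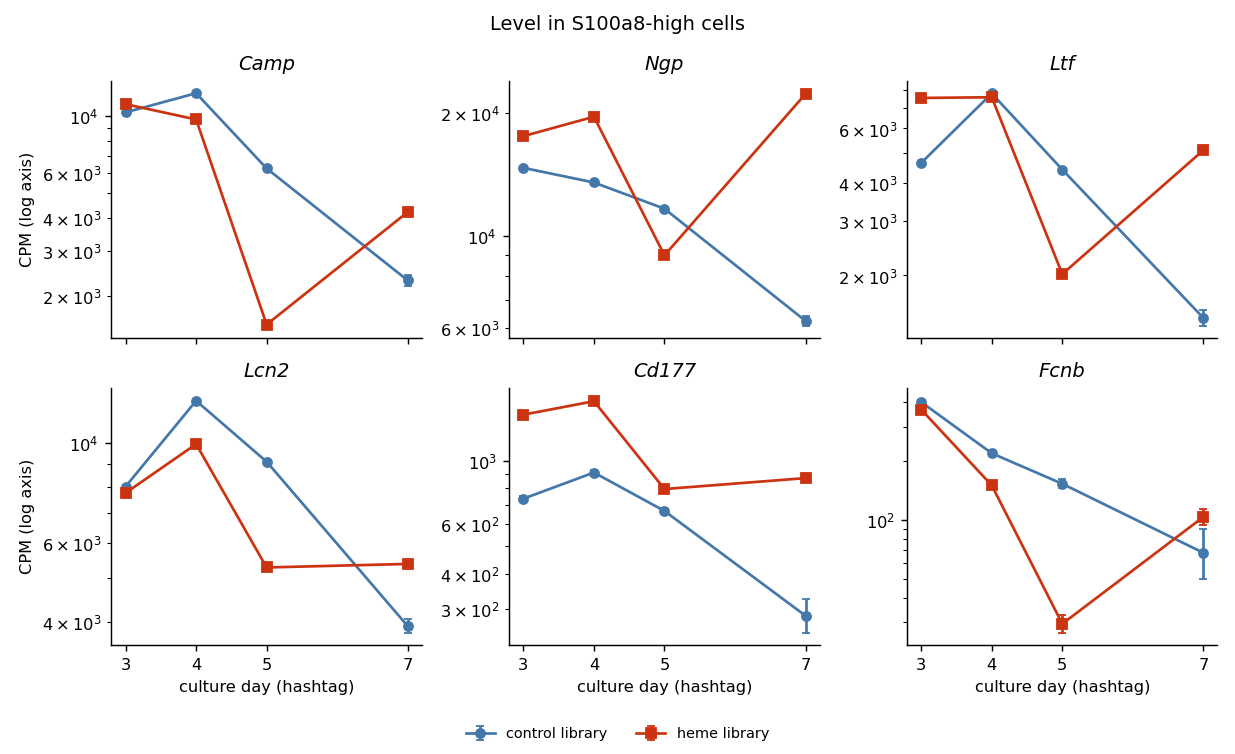
Level of each member (CPM, log axis) within S100a8-high cells of the control and heme libraries on days 3, 4, 5 and 7, 1 panel per gene, with 95% Poisson intervals as error bars. The heme values dip on day 5 (Camp 1548 against 6247 CPM) and lie above the control values on day 7 (Camp 4231 against 2297 CPM), where Camp was lower with heme (-1.44 on the log2 scale) among cells with the clearest hashtags.

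From day 5 to day 7, a step chosen after seeing the data, the levels in S100a8-high cells went apart. In the control library 5 of 6 members were lower, at 0.330 (Ltf) to 0.444 (Fcnb) of the day 5 level, with Ngp at 0.533 (0.517 to 0.550), against 5.21% of all genes. In the heme library 4 of 6 were higher, with ratios of day 7 to day 5 of 2.73 (2.68 to 2.79) for Camp, 2.47 (2.45 to 2.49) for Ngp, 2.52 (2.48 to 2.57) for Ltf and 3.51 (3.03 to 4.07) for Fcnb, against 3.23% of all genes. Lcn2 and Cd177 were at 1.02 (1.00 to 1.03) and 1.09 (1.05 to 1.14) times the day 5 level. The difference between the libraries was not tested. The heme cells of day 7 were also those with the least clear hashtags. On day 7, the called tag held a median of 68.9% of the hashtag UMIs in S100a8-high heme cells and 75.6% in S100a8-high control cells. These medians were 78.2% to 86.9% on days 3 to 5. In the heme cells, the called tag had a median of 376 UMIs on day 7 and 741 UMIs on day 5. The medians of the other tags were 31 to 63 and 28 to 64 UMIs. In the heme cells of day 7, the lower share thus went with a lower median of the called tag. Medians over all cells cannot show whether another tag was raised in some of them.

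The members followed the hashtag margin within the heme cells of day 7. Of the 469 S100a8-high cells, 108 had under 60% of their hashtag UMIs on the called tag, 238 had 60% to 75% and 123 had 75% or more. Over these classes, Camp was at 5811, 4952 and 888 CPM, Ngp at 28347, 25336 and 8562 CPM and Ltf at 6549, 5707 and 2152 CPM. Lcn2 was at 6454, 5937 and 2994 CPM, Cd177 at 1184, 954 and 328 CPM and Fcnb at 152, 112 and 31.7 CPM. All 6 were lowest in the cells with the clearest tags, where the level of Camp (888 CPM) lay below its heme level of day 5. With 75% or more on the called tag in all cultures, the share of S100a8-high cells on day 7 was 8.37% (7.01% to 9.91%) in the heme and 3.06% (2.42% to 3.81%) in the control library. The heme changes from day 5 to day 7 on the log2 scale then were -0.40 for Camp, 0.18 for Ngp, 0.41 for Ltf and 0.51 for Fcnb, so that none of these 4 was past 2-fold. Lcn2 was at -0.78 and Cd177, now lower past 2-fold, at -1.14. Camp, Lcn2 and Cd177 thus had the sign of the control library under this margin. Whether cells of another day carried the day 7 tag was not tested.

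S100a8-high cells were split by stage to show where in maturation the members stood. Primary granule cells had 1000 CPM or more of Mpo, Elane, Prtn3, Ctsg, Ms4a3 and Prss57 together, cycling cells fell under that limit and had 500 CPM or more of 6 cell cycle genes, and the third class had neither. The control library held 576 primary granule cells on day 3, 257 on day 4 and 107 on day 5, and the heme library held 564, 198 and 68. On day 3, Camp was at 6542, 18589 and 19177 CPM in primary granule, cycling and remaining control cells and at 6063, 16524 and 16276 CPM in these heme cells. Ltf was at 2112, 9129 and 12766 CPM and 2975, 10843 and 16225 CPM. Both genes were thus lowest in the cells with primary granule transcripts. Ltf had the steepest gradient of the members, with a ratio of remaining to primary granule cells of 6.04 (5.93 to 6.16) in the control and 5.45 (5.37 to 5.53) in the heme library. Lcn2 followed at 5292, 13038 and 16382 CPM and 4783, 10091 and 12961 CPM, and Cd177 at 512, 1233 and 1244 CPM and 1112, 1815 and 1808 CPM. Ngp was at 12517, 21564 and 15414 CPM and 15899.6, 21286 and 14300.2 CPM, highest in the cycling cells and short of 2-fold. Fcnb ran the other way, at 424, 387 and 260.4 CPM and 419, 321 and 285 CPM.

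Between remaining and primary granule cells, 4 members were higher on day 3 and 3 on day 4 in the control library, against 9.87% and 15% of all genes, and 3 and 2 in the heme library, against 8.42% and 10.1%. On these days, Fcnb was the 1 member called lower, on day 4 in the control library at 0.464 (0.424 to 0.507), against 29.2% of all genes. On day 5 the classes of the control library still differed, with Camp at 5315, 12249.8 and 4739.5 CPM, whereas Camp of the heme library was nearly level at 1578, 1575 and 1537 CPM. The lower day 5 level of Camp under heme was thus seen in each class, with ratios of heme to control of 0.297 (0.281 to 0.314) in primary granule, 0.129 (0.124 to 0.133) in cycling and 0.324 (0.317 to 0.331) in remaining cells. Ltf had ratios of 0.871, 0.282 and 0.452 in the same order. Fewer of the S100a8-high cells of the heme library had primary granule transcripts on day 4, 198 of 2069 against 257 of 1444. This was so on day 3, before heme was added, at 42.5% against 56.4%, and on day 5, at 4.83% against 7.94%. On day 7 the order was reversed, at 14.1% in the heme and 7.30% in the control library (10 of 137 cells). The part of this mix in the summed levels was not tested.

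**Figure D4:**
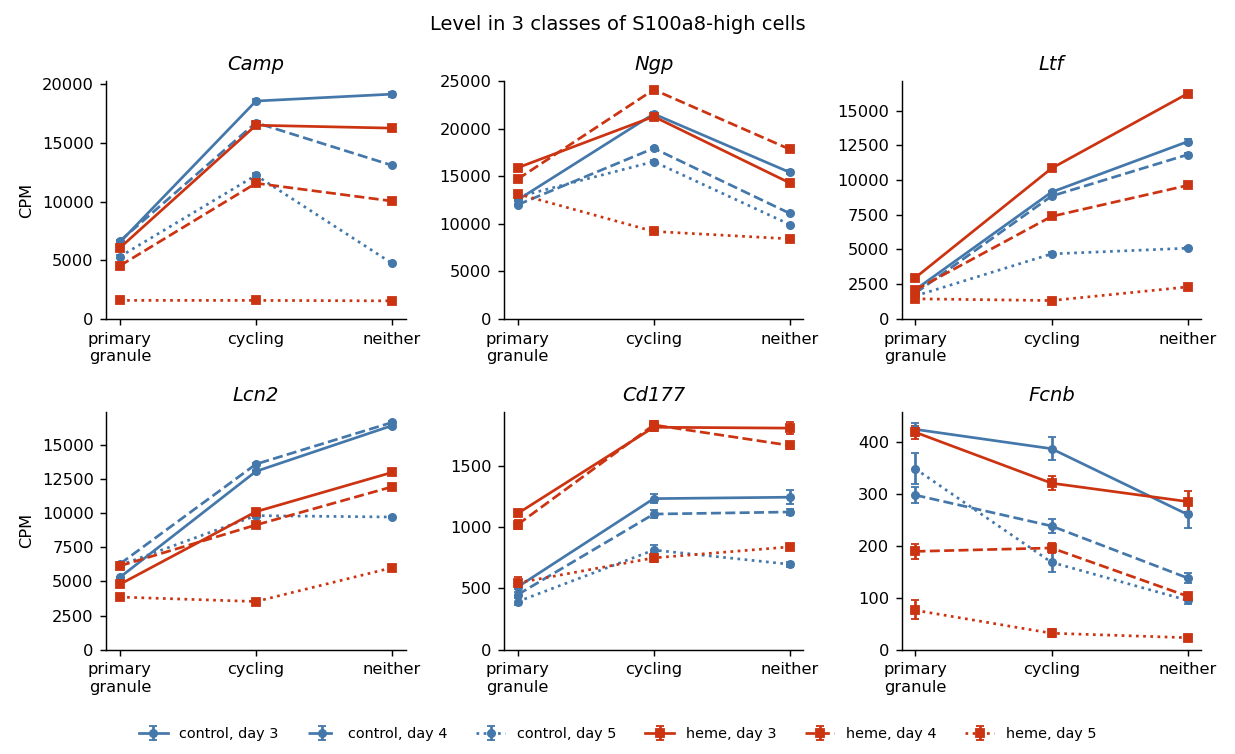
Level of each member (CPM) in 3 classes of S100a8-high cells (primary granule, cycling, neither) on days 3 (solid lines), 4 (dashed) and 5 (dotted) in the control and heme libraries, with 95% Poisson intervals. Ltf climbs from primary granule to remaining cells on day 3 (2112 to 12766 CPM in the control library), and Fcnb goes the other way (424 to 260.4 CPM).

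Single cells showed that the decline of the members was uneven. The median control S100a8-high cell held 9446, 10301, 717 and 127 CPM of Camp on days 3, 4, 5 and 7, and the median heme cell held 10191, 7389, 189.6 and 439.9 CPM. On day 5 the highest decile of the control cells began at 16422 CPM and that of the heme cells at 5364 CPM. The level summed over cells (6247 and 1548 CPM) thus exceeded that of the median cell in both libraries. Lcn2 had a median above 0 on each day, with 6429.6 CPM on day 5 and 2220.2 CPM on day 7 in the control and 4373 and 4081 CPM in the heme cells. The median of Ngp on day 7 was 285 CPM in the control and 15507 CPM in the heme cells. For Ltf, the medians of day 5 were 1158 CPM in the control and 250.2 CPM in the heme cells.

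To compare detection at equal depth, each cell was thinned to 2000 UMIs, which left out 1 to 111 shallower S100a8-high cells per control culture and 4 to 75 per heme culture. Camp then had a UMI in 80.7%, 85.8%, 60.4% and 33.3% of the control S100a8-high cells of days 3, 4, 5 and 7 and in 87.9%, 87.1%, 43.7% and 56.9% of the heme cells (unthinned 93.0% and 97.5% on day 3). In erythroid-marker cells of day 0, which should lack the gene, this share came to 6.74% in the control and 10.0% in the heme library. Median depths before thinning were 19424 and 17796 UMIs in these cells and 13806 and 13975 UMIs in S100a8-high cells of day 3. All S100a8-high shares of Camp lay above this background. Lcn2 was detected in the most cells of the 6 members in each of these cultures, namely in 92.5%, 97.6%, 92.2% and 84.7% of the control and 97.1%, 99.0%, 96.7% and 92.9% of the heme cells, against 6.18% and 21.2% in erythroid-marker cells. Most members varied together from cell to cell, and Fcnb did so least. Over the 15 pairs of members, the median Pearson r of log2(CPM + 1) was 0.53, 0.37, 0.56 and 0.54 in the control cells of days 3, 4, 5 and 7 (1021, 1444, 1347 and 137 cells) and 0.34, 0.48, 0.52 and 0.65 in the heme cells (1326, 2069, 1408 and 469 cells). Ltf and Lcn2 were the closest pair on day 3, at 0.89 and 0.86. The lowest pair included Fcnb on each day, at 0.09, 0.07, 0.20 and 0.20 in the control and -0.04, 0.19, 0.15 and 0.32 in the heme cells. Cells of 1 culture share a library and differ in depth, so these values are descriptions.

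Outside the S100a8-high class the members stood at a low level, which was higher in the heme library. Day 0 cells with S100a8 under 1% held Camp at 46.4 CPM in the control and 71.2 CPM in the heme library, and Ngp at 58.1 and 176 CPM. The erythroid-marker class was not limited by S100a8, so it may hold S100a8-high cells. Erythroid-marker cells of day 0 (178 control and 250 heme cells with 5 or more UMIs of Klf1, Car1, Ermap, Epor, Gata1 and Rhag) held Camp at 38.6 CPM in the control and 66.1 CPM in the heme library, and Ngp at 44.2 and 205 CPM. Ltf was at 23.6 and 87.6 CPM, Lcn2 at 45.1 and 115 CPM, Cd177 at 3.54 and 19.5 CPM, and Fcnb at 1.18 and 2.71 CPM. Car1, a carbonic anhydrase, was at 2504 and 1762 CPM, but it is among the genes that define the class. Its level therefore cannot test the erythroid identity of these cells. The neutrophil receptor gene Csf3r was at 0 and 3.45 CPM. Markers of megakaryocytes summed to 14.7 CPM in the control and 87.1 CPM in the heme library. Those of basophils or mast cells summed to 109 and 179 CPM. Sums of monocyte (12.98 and 7.65 CPM) and eosinophil markers (8.85 and 1.48 CPM) were lower in the heme library. Free RNA of the pool gives UMIs in cells that do not express a gene. The levels in erythroid-marker cells were 1.01% to 1.38% of the mean over all kept cells of the control library and 1.73% to 3.08% of that of the heme library. Relative to S100a8, Camp stood at 10.1% in control erythroid-marker cells and 8.84% in the control library, and at 8.19% and 8.25% in the heme library. Ngp stood at 11.6% and 11.9% in the control and at 25.4% and 17.2% in the heme library. The ratio of heme to control in these day 0 cells was 4.64 (3.89 to 5.56) for Ngp, 3.71 (2.90 to 4.79) for Ltf and 1.71 (1.38 to 2.13) for Camp, although these cultures preceded the exposure. Fcnb, with few UMIs, had 2.30 (0.682 to 9.90).

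Cells of other lineages and days were low in the members as well, though not all at the erythroid-marker level. Macrophage-marker cells (5 or more UMIs of Csf1r, Adgre1, Mrc1, C1qa and Marco) held Camp at 44.3, 40.2, 43.8 and 42.1 CPM on days 3, 4, 5 and 7 in the control and at 69.9, 84.1, 66.9 and 73.9 CPM in the heme library. Lcn2, which macrophages can make, was at 134, 98.1, 67.1 and 72.4 CPM and at 196, 241, 209 and 185 CPM. Its heme level thus stood above the erythroid-marker level of 115 CPM on each day, and its control level above that of 45.1 CPM. Dendritic-marker cells (Ccr7 and Fscn1) held Camp at 39.7, 43.4 and 39.4 CPM on days 4, 5 and 7 in the control and at 70.1, 75.6 and 62.0 CPM in the heme library, and Lcn2 at 70.7, 52.3 and 47.6 and 127, 111 and 118 CPM. Cd177 in control macrophage-marker cells of day 3 was at 13.5 CPM, above its 3.54 CPM in erythroid-marker cells. Basophil or mast marker cells of day 0 (93 and 175 cells) had Lcn2 at 201 and 382 CPM. Camp was at 74.9 and 209 CPM there, Ngp at 58.0 and 632 CPM, and Ltf at 36.3 and 225 CPM. Relative to erythroid-marker cells of the heme library, the ratios were 3.16 (2.65 to 3.78) for Camp, 3.08 (2.78 to 3.40) for Ngp, 2.57 (2.19 to 3.03) for Ltf and 3.33 (2.91 to 3.79) for Lcn2, so the low level of day 0 differed between cell classes. In the control culture of day 7, Camp was at 89.9 CPM, and the S100a8-high cells held 56.3% of the member UMIs there. On day 0, the 13 control and 23 heme S100a8-high cells held 85.0% and 71.9% of the Camp UMIs of their cultures, so the day 0 levels rested on few cells.

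**Figure D5:**
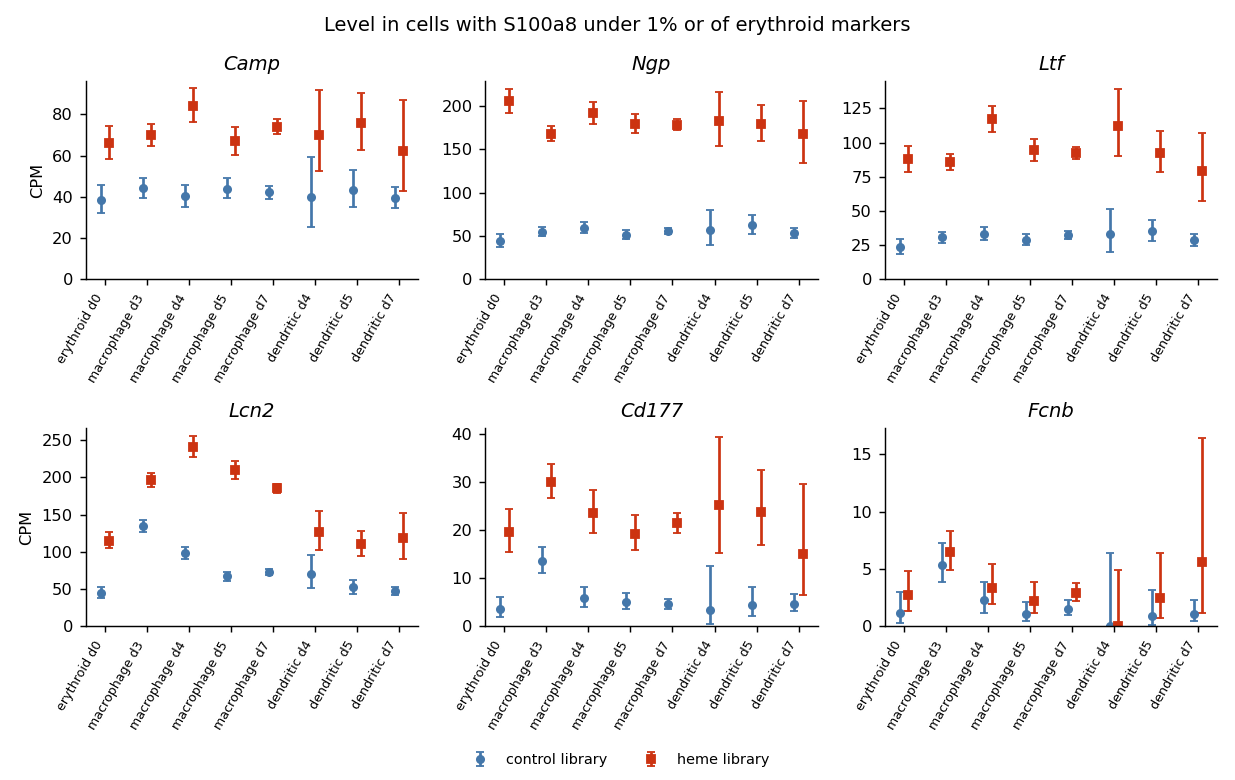
Level of each member (CPM) in cells of other lineages, namely erythroid-marker cells of day 0, macrophage-marker cells of days 3 to 7 and dendritic-marker cells of days 4 to 7, in the control and heme libraries, with 95% Poisson intervals. For each member but Fcnb the points of the heme library lie higher in every class shown (Camp 38.6 and 66.1 CPM in erythroid-marker cells).

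Other genes of the granule programme were read beside the members within S100a8-high cells. The 5 compared genes of the other specific granule list, from Hp, Mmp8, Olfm4, Pglyrp1, Chil3 and Ptx3, had median log2 ratios of heme to control of 0.11, -0.34, -0.85 and 0.15 on days 3, 4, 5 and 7, beside 0.18, -0.18, -0.95 and 1.24 for the members. On day 5, 1 of them was higher and 2 were lower, against 10.5% and 1.86% of all genes. Pglyrp1, a peptidoglycan recognition protein of these granules, was at 3344, 5123, 3831 and 1824 CPM in the control and 3533, 3636, 1644 and 2019 CPM in the heme cells. Chil3, a chitinase-like protein, was at 4491, 8437, 9713 and 5277 CPM and 4937, 5799.7, 3842 and 2700.1 CPM. Mmp8, the neutrophil collagenase, was the 1 higher on day 5, at 775 CPM in the control and 2477 CPM in the heme cells. Of the 6 primary granule genes, 4 were lower on day 3, 6 on day 4 and 4 on day 5, against 1.25%, 0.979% and 1.86% of all genes, with medians of -1.14, -2.22 and -1.64. Elane, which encodes neutrophil elastase, was at 4011, 1029, 446 and 188 CPM and 1618, 122, 123 and 234 CPM. The difference in primary granule genes was thus present on day 3, before heme was added.

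The late neutrophil list (10 genes of gelatinase granules and mature cells) had medians of 0.89, 0.70, 0.66 and -0.27, with 4 genes higher on day 3 (against 13.7% of all genes), 1 higher and 1 lower on day 4 (against 13.6% and 0.979%), 3 higher on day 5 (against 10.5%) and 3 lower on day 7 (against 4.18%). Cxcr2, the chemokine receptor of mature neutrophils, was at 8.54, 29.1, 28.6 and 32.6 CPM in the control and 14.7, 57.4, 109.6 and 48.3 CPM in the heme cells. Among the 6 regulators, Cebpe was at 655, 496, 286 and 164 CPM in the control and 609, 358, 143 and 340.0 CPM in the heme cells. Its values thus were lower in the heme cells on days 3, 4 and 5 and higher on day 7. Camp, Ngp, Ltf, Lcn2 and Fcnb were also lower on day 5 and higher on day 7, and Cd177 was higher on both days. Under the hashtag margin, Camp was lower with heme on day 7. A link of Cebpe to the members was not tested. Gfi1, a repressor needed for neutrophil development, was at 35.9, 17.8, 12.6 and 2.83 CPM and 43.7, 19.1, 8.00 and 28.9 CPM. Its control value of day 7 rests on very few UMIs, and the gap to the heme value was not tested. Spi1, which encodes PU.1, varied little, from 393 to 442 CPM in the control and from 384 to 404 CPM in the heme cells. Markers of monocytes summed to 174 CPM in the S100a8-high control cells and 78.4 CPM in the heme cells on day 7, and those of dendritic cells to 375 and 69.8 CPM, against 30.7 and 56.4 CPM and 101 and 91.5 CPM on day 5. The part of these and of the macrophage markers in the lower member levels of the 137 control cells of day 7 was not tested.

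Over the 10 cultures, the members followed 1 profile. The Pearson r of log2(CPM + 1) between a member and the mean standardised profile of all 6 was 0.996 for Ltf, 0.984 for Ngp, 0.983 for Lcn2, 0.980 for Cd177, 0.975 for Camp and 0.948 for Fcnb, and the lowest pair was Cd177 with Fcnb at 0.880. Each member is part of this mean. The 10 genes outside the members with the highest r, among 7889 genes with a mean of 10 CPM or more, were Lipg (0.990), Itgb2l (0.990), Mogat2 (0.987), Pglyrp1 (0.985), Hsd11b1 (0.984), 4930438A08Rik (0.984), Pi16 (0.979), Ankrd22 (0.978), Ceacam1 (0.973) and Chil1 (0.972). Pglyrp1 was the 1 gene of the other specific granule list among them. The 10 cultures share 2 libraries and differ in the share of S100a8-high cells, so r is given as a description without p. Itgb2l, an integrin beta chain of the neutrophil surface, was at 1.94, 71.7, 98.7, 42.4 and 2.71 CPM on days 0, 3, 4, 5 and 7 in the control and at 4.25, 125, 166, 50.9 and 23.9 CPM in the heme library.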

How the data were processed

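The authors processed 2 single-cell libraries from pooled, hashtagged mouse cultures and deposited 1 count matrix and 1 table of hashtag calls (HTODemux) per library. The submitters' processing notes name Cell Ranger 4.0.0, whereas the matrix headers name Cell Ranger 5.0.0, and mm10 is the build. The deposited values are raw counts of UMIs per gene and barcode, with no normalization. Further steps used Python 3.11.15, numpy 2.4.6, scipy 1.17.1, pandas 2.3.3 and matplotlib 3.10.9, and R 4.3.3 with edgeR 4.0.16 and DESeq2 1.42.0 for scaling factors only.

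Barcodes called as singlets were kept at 500 to 5000 genes, under 15% mitochondrial and under 30% ribosomal protein UMIs. Doublets were treated through the hashtag calls only, so doublets of 1 culture remain. UMIs were summed per library, hashtag day and cell class and divided by the summed total. Ratios carry exact 95% Poisson intervals and shares exact Clopper-Pearson intervals, which cover counting error only. Each group is 1 library, so no test across libraries was made, and the sums rest on 6189203 or more UMIs per culture. Genes with 20 or more UMIs in both groups together were compared, and 2-fold was the limit for a call. The scripts were tested on simulated data.

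The genes named are the 6 members, the genes of the granule, late neutrophil and regulator lists, the markers of each cell class and the 10 genes with the profile most like the members. The members and lists were chosen with earlier results of these data known. The macrophage markers used are the 5 genes Csf1r, Adgre1, Mrc1, C1qa and Marco, and another gene of that list is not reported here. Alternatives on cell limits, totals, scaling, class limits, subtraction of free RNA and hashtag margin were run. Those on the hashtag margin, shared barcodes, ribosomal gene names and stage classes, the step from day 5 to day 7 and the macrophage and dendritic classes were chosen after seeing the data.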

Additional observations from a re-analysis of the deposited data

Results flagged for a closer look

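Within S100a8-high cells, the change from day 5 to day 7 had opposite signs in the 2 libraries for all 6 members, a difference that was not tested because each group is 1 library. On the log2 scale, Camp changed by -1.44 in the control and 1.45 in the heme cells, Ngp by -0.91 and 1.30, and Ltf by -1.60 and 1.34. Fcnb changed by -1.17 and 1.81. The heme values of Lcn2 (0.026, against -1.22 in the control) and Cd177 (0.13, against -1.22) were near 0. With 75% or more of the hashtag UMIs on the called tag, the heme changes of Camp (-0.40), Lcn2 (-0.78) and Cd177 (-1.14) had the sign of the control library. In cells under the primary granule and cell cycle limits, the heme changes of Lcn2 (-0.20) and Cd177 (-0.26) also had the control sign. From day 3 to day 4 the signs also differed for Camp, at 0.25 in the control and -0.20 in the heme cells, and for Ngp, at -0.12 and 0.16. These changes were small and the differences were not tested.

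Barcodes without a hashtag belong to no culture day and were in none of the comparisons. They held the members in both libraries, at higher levels in the heme library. Camp was at 1150.0 CPM in 1218 heme barcodes and at 514 CPM in 652 control barcodes. Ngp was at 3409 and 630.5 CPM, Ltf at 1169 and 300.4 CPM, and Lcn2 at 1285 and 443 CPM. Cd177 was at 265 and 40.2 CPM, and Fcnb at 48.9 and 13.9 CPM. Which days these barcodes came from was not tested.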

How the results depend on the processing

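No paired analysis was possible because each group is 1 library and no result comes from a test. Of 828 recomputed values of single members, 19 came below the 2-fold limit and 12 went past it in the same direction. The sign changed in 52 values, of which 11 were with all singlet barcodes, 11 with no upper limit on genes and 8 under the hashtag margin (75% or more of the hashtag UMIs on the called tag). A further 7 came after division by the day 3 ratio, 5 in cells under the primary granule and cell cycle limits and 4 each with TMM and DESeq2 factors. In 3 of the 52 the value was past 2-fold before or after the change, each in S100a8-high cells under the hashtag margin. They were the heme changes from day 5 to day 7 of Camp (-0.40) and Cd177 (-1.14) and the day 7 ratio of heme to control of Camp (-1.44). In whole cultures, the count of members past 2-fold on day 3 went from 1 to 0 with all singlet barcodes, with no upper limit on genes and with DESeq2 factors, and that of day 4 went from 1 to 0 under the same settings and after division by the day 3 ratio. Within S100a8-high cells it went from 0 to 1 on day 3 under the hashtag margin, and from 3 to 5 on day 7 in cells under the primary granule and cell cycle limits. Counts ranged from 2 to 3 on day 5 and from 4 to 6 on day 7 in whole cultures, with medians of -1.10 to -0.26 and 1.67 to 3.93, and in S100a8-high cells were 3 under all settings on day 5 (-1.28 to -0.90) and 2 to 5 on day 7 (0.17 to 1.89). From day 4 to day 7 all 6 members were lower in both libraries under all settings run. The median member level in erythroid-marker cells was 31.1 CPM in the control and 76.9 CPM in the heme library. It was 46.6 and 113 CPM over totals without S100a8, S100a9, the members, ribosomal protein and mitochondrial genes, and 47.1 and 217 CPM in basophil or mast marker cells. The control level was 21.5 CPM under the hashtag margin. The heme level was 70.0 CPM with all singlets, 69.4 CPM with no upper limit on genes and 83.9 CPM without the 5% of cells with most UMIs. Calls over all genes were not recomputed under the hashtag margin, with all singlet barcodes or with no upper limit on genes. With genes of 1 or more UMI, the calls over all genes went from 1071 to 1771 on day 3 and from 1631 to 2459 on day 5. The causes of these shifts were not tested. Fcnb had few UMIs in erythroid-marker cells, and its intervals there are wide. The absence of a second library limits every difference between heme and control.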

Other observations

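Camp, Ngp and Ltf lie on 1 stretch of chromosome 9 with other genes between them. Of these neighbours, 18 could be compared between heme and control on day 7 in whole cultures. The neighbours included 1 called higher and 1 called lower, so 5.56% were higher against 14.9% of all genes, and their median log2 ratio was 0.35 beside 0.28 for all genes. Barcodes called with several hashtags held Camp at 2648 CPM in the control and 1735 CPM in the heme library, and Ngp at 3232 and 3731 CPM. These barcodes belong to no single day and were in none of the comparisons.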
